A study of Mus musculus with 7 samples.

Results

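The 10 genes described here are imprinted genes with roles in growth: H19, Igf2, Dlk1, Meg3, Rian, Peg3, Mest, Grb10, Plagl1 and Ndn. They were chosen by name, were found among the 55423 features of a table of read counts per gene, and all 10 passed a filter of at least 5 reads in at least 1 tumour, which left 24433 genes to be tested. Bulk RNA came from mouse cutaneous squamous cell carcinomas. The control group, Ivl:BRAFV600E, carried BRAFV600E together with Ivl-CreERT2, a Cre recombinase that becomes active with tamoxifen and is driven by the involucrin promoter, so that recombination starts in IVL+ epidermal cells. The comparison group, Ivl:BRAFV600E-SOX2LSL, carried the same alleles and a Rosa26 allele from which SOX2 and eGFP are expressed after recombination. Both groups received topical tamoxifen at 7 to 10 weeks of age, per the labels, were kept on a C57BL/6J background, and were collected at the clinical endpoint, which every Ivl:BRAFV600E-SOX2LSL mouse reached earlier than every Ivl:BRAFV600E mouse, so that time since induction and genotype cannot be told apart. The 3 Ivl:BRAFV600E tumours came from 2 females, which also carried a Rosa26 tdRFP reporter, and 1 male without it, and the 3 Ivl:BRAFV600E-SOX2LSL tumours came from 2 males (tumours 1 and 2) and 1 female (tumour 3). Each tumour is 1 library. A piece of whole tumour holds stroma as well as cancer cells, and in such RNA fewer cells of a type and less RNA per cell cannot be told apart.

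Imprinted genes are transcribed mainly from the copy inherited from 1 parent, because methylation laid down in the germ line marks 1 of the parental copies. The zinc finger proteins ZFP57 and ZFP445 with TRIM28 keep that methylation in the early embryo, and the DNA methyltransferases DNMT1, DNMT3A and DNMT3B write and copy it. Many imprinted genes are high in the fetus and placenta, fall after birth as growth slows, and remain in a few adult stem and stromal cell types; in postnatal skin most are low. Among these 10, Igf2, Dlk1, Peg3, Mest, Plagl1 and Ndn are expressed from the paternal copy, H19, Meg3 and Rian from the maternal copy, and Grb10 from the maternal copy in most tissues and from the paternal copy in neurons. The counts used here do not separate the parental copies, so they give total expression and say nothing of imprinting itself.

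Several of these genes are long RNAs that give rise to or surround microRNAs, shown here because the deposited counts do not follow the mature products. An exon of H19 holds miR-675, Meg3 spans miR-770, and Mest holds miR-335. Their mature sequences are given 5′ to 3′, from RefSeq on GRCm38.p6, with the seed (bases 2 to 8) in capitals.
miR-675-5p (H19): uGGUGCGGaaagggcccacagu
miR-675-3p (H19): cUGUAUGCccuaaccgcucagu
miR-335-5p (Mest): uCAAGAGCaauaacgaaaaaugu
miR-335-3p (Mest): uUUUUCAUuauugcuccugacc
miR-770-5p (Meg3): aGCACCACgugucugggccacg
miR-770-3p (Meg3): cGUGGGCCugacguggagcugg
The 6 seeds differ from each other. The rows for Mir675 and Mir770, whose hairpins lie inside exons of H19 and Meg3, held 0 counts in all 6 tumours. So did the 9 small RNA rows that overlap exons of Rian, while rows within its introns were not looked up. Libraries of long RNA do not measure mature microRNAs or small nucleolar RNAs, and a read in a shared exon may not be assigned to either gene.

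Promoters were searched because the comparison turns on a transcription factor, SOX2, and on genes under a shared kind of control. RefSeq windows of 300 bases on GRCm38.p6, from 250 bases before to 50 after a transcription start, were found for 9 of the 10 genes, 16 windows in all. The ZFP57 hexamer TGCCGC lay on either strand in 6 of the 16 windows (37.5%) and in 11.6% of all 32851 windows, and the 6 windows belong to 5 genes, Igf2, Meg3, Mest, Grb10 and Plagl1. Both Mest windows that hold it overlap almost wholly. The SOX core ACAATG lay in 1 of the 16 windows, 56 bases before an Igf2 start, against 12.6% of all windows, and the other SOX core, ACAAAG, lay in 0 of 16 against 18.7%. The octamer GGGGCCCC, known as a site of PLAGL1, lay in 1 of 16, 201 bases before the Peg3 start, against 1.08% of all windows. These matches are a description of the sequence and not sites. The 250 bases before the start are printed for 3 of the genes, with every searched motif in capitals (GCGGCA is the ZFP57 hexamer read from the opposite strand). The Meg3 stretch lies at chr12:109540746-109540995 on the plus strand, with the hexamer 190 bases before the start. The Mest stretch lies at chr6:30737800-30738049 on the plus strand, with hexamers 242 and 67 bases before the start. The Peg3 stretch lies at chr7:6730420-6730669 on the minus strand.
Meg3: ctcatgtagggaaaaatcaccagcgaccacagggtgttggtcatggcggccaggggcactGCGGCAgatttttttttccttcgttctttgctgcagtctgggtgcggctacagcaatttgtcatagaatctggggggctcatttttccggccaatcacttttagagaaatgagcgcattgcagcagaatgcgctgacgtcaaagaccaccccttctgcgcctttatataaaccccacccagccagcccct
Mest: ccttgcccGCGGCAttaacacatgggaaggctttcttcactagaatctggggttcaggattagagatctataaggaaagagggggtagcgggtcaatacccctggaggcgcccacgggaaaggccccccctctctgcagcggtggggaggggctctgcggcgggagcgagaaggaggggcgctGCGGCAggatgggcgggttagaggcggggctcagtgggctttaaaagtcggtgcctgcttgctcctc
Peg3: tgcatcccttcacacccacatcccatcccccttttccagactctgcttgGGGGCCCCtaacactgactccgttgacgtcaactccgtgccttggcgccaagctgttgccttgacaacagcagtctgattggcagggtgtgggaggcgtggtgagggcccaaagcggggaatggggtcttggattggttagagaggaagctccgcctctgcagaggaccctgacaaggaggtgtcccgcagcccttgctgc

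The counts on genes per tumour ran from 23565432 to 31152826. Levels are CPM, counts per M counts of the library after TMM scaling. A fold change is Ivl:BRAFV600E-SOX2LSL over Ivl:BRAFV600E on the log2 scale from edgeR's quasi-likelihood test. Its standard error (SE) was derived from the fold change and the F statistic of that test. An adjusted p is by Benjamini-Hochberg over all genes tested. A level of 3 counts, the least that can be told from 0 by counting error alone, lay between 0.0839 and 0.143 CPM. Sox2 itself was at 0.238 to 0.716 CPM in Ivl:BRAFV600E tumours and at 155 to 182 CPM in Ivl:BRAFV600E-SOX2LSL tumours, as the labels say (log2 fold change 8.35, edgeR adjusted p = 8.1e-04). All 14 keratinocyte markers, Krt5 and Krt14 among them, were detected.

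None of the 10 genes passed the test. Over all genes edgeR called 2.39% higher and 1.51% lower in Ivl:BRAFV600E-SOX2LSL tumours at an adjusted p of 0.05. DESeq2's Wald test, which called 8.59% of all genes tested higher and 6.36% lower, called 1 of the 10, H19. It gave no adjusted p for Mest and Dlk1, so it did not judge them. The limma voom fit, which called 1.51% higher and 1.47% lower, called 0 of the 10. Dlk1 and Igf2 passed the filter on low counts only through Ivl:BRAFV600E-SOX2LSL tumours, in which they had more reads, so counts over the genes are given for the other 8 genes and for the 20587 genes that, like them, reached 5 reads in a tumour of each group. At an unadjusted edgeR p of 0.05, 3 of the 8 (H19, Meg3 and Rian) lay higher and 0 lower, where 14.5% of such genes lay higher and 11.8% lower. The groups did not overlap, with every Ivl:BRAFV600E-SOX2LSL tumour above every Ivl:BRAFV600E tumour, in Meg3 and Rian, 2 of 8 against 17.9% of such genes, and 0 of 8 lay wholly below, against 17.2%. The fitted log2 fold change was above 0 in all 8, against 50.6% of such genes, with a median of 1.29 against 0.0081. Much of this came from 1 tumour. Of the 8 genes, 6 were highest in Ivl:BRAFV600E-SOX2LSL tumour 1, which was the highest tumour for 28.1% of such genes. Without that tumour the median over the 8 genes was 0.59 and 7 of the 8 lay above 0, against 49.4% of such genes.

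**Figure D1:**
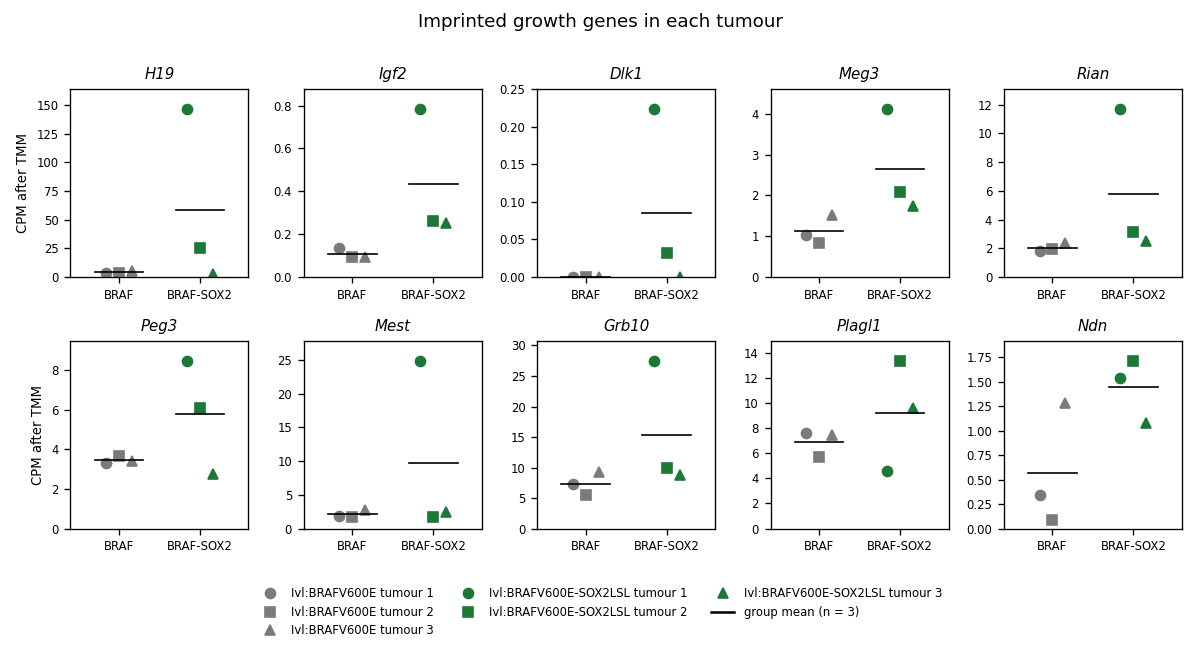
Level of each of the 10 genes in each tumour, in CPM after TMM on a linear axis that starts at 0 and has its own range in each panel. Points are tumours (n = 3 per group; BRAF, Ivl:BRAFV600E; BRAF-SOX2, Ivl:BRAFV600E-SOX2LSL) and lines are group means; in 8 panels the highest point is Ivl:BRAFV600E-SOX2LSL tumour 1, while Plagl1 and Ndn are highest in tumour 2.

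H19 and Igf2 share an imprinted domain at the distal end of chromosome 7. Igf2 encodes the fetal growth factor IGF2, and H19 is a long noncoding RNA that is read from the opposite parental copy and is linked to restraint of growth. H19 (ENSMUSG00000000031, chromosome 7, 142575529 to 142578143, minus strand of GRCm38) stood at 3.68, 3.19 and 5.18 CPM in Ivl:BRAFV600E tumours 1, 2 and 3, and at 147, 25.3 and 2.67 CPM in Ivl:BRAFV600E-SOX2LSL tumours 1, 2 and 3. The SOX2LSL group therefore held both the highest and the lowest tumour of all 6, and the groups overlapped. Tumour 1 was 36.5-fold above the mean of the Ivl:BRAFV600E tumours, tumour 2 was 6.31-fold above it, and tumour 3 was at 0.665 of it. The group means were 4.02 ± 1.04 and 58.2 ± 77.3 CPM (SD, n = 3 each), so the SD of the second group exceeded its mean. The log2 fold change was 3.86 (SE 1.23, edgeR adjusted p = 0.113). The call turned on the fit. It passed with DESeq2 (adjusted p = 0.0220) and with edgeR without Ivl:BRAFV600E-SOX2LSL tumour 3 (log2 fold change 4.42, adjusted p = 0.0477), and it fell to 1.80 without tumour 1 (adjusted p = 0.213) and to 1.91 with sex as a covariate (adjusted p = 0.534). Over 13 alternatives its adjusted p ran from 0.0220 to 0.534.

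Igf2 (ENSMUSG00000048583, chromosome 7, 142650766 to 142666816, minus strand) was close to the limit of these depths. It had 4, 2 and 2 reads in the Ivl:BRAFV600E tumours and 28, 8 and 7 reads in the Ivl:BRAFV600E-SOX2LSL tumours, that is 0.136, 0.0924 and 0.0950 CPM against 0.783, 0.259 and 0.253 CPM. Every Ivl:BRAFV600E-SOX2LSL tumour was higher, with tumour 1 at about 3.06 times the mean of the other two. Since 2 of the 3 Ivl:BRAFV600E tumours had fewer than 3 reads, and the gene passed the filter only through the group where it is high, no fold change is given. In the annotation 3596 of the 5723 exonic bases of Igf2 (62.8%) are shared with Gm49394, a gene model on the same strand that had 0 counts in all 6 tumours, so the level of Igf2 is uncertain. H19 and Igf2 moved unequally among the Ivl:BRAFV600E-SOX2LSL tumours. Tumours 2 and 3 had nearly the same Igf2 level, and H19 differed between them by 25.3 against 2.67 CPM.

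The genes whose profile over the 6 tumours was most like that of H19, by the root mean square difference of centred log2 CPM among 14430 genes with a mean of at least 1 CPM, were Dynap (difference 0.71), Eya1 (0.80) and Doc2b (0.86). Dynap stood at 1.43 to 2.49 CPM in Ivl:BRAFV600E tumours and at 25.6, 14.3 and 1.37 CPM in Ivl:BRAFV600E-SOX2LSL tumours. Like H19, its level in tumour 3 was below every Ivl:BRAFV600E tumour. The genes nearest to Igf2 were Shroom4 (0.077), Dpy19l3 (0.091) and Syde1 (0.10), and Shroom4 stood at 7.02 to 9.82 CPM against 37.5, 13.5 and 13.8 CPM. At so few reads the prior count of 2 shapes the profile of Igf2.

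Dlk1, Meg3 and Rian lie in a second imprinted domain, on distal chromosome 12. Dlk1 encodes a transmembrane relative of the Notch ligands that holds back the differentiation of preadipocytes and other progenitors, Meg3 is the long noncoding RNA of the maternal copy, and Rian is the downstream transcript that carries a cluster of small nucleolar RNAs. Dlk1 (ENSMUSG00000040856, chromosome 12, 109452823 to 109463336, plus strand) had 0 reads in all 3 Ivl:BRAFV600E tumours and 8, 1 and 0 reads in the Ivl:BRAFV600E-SOX2LSL tumours. Only the 8 reads of tumour 1 (0.224 CPM) exceeded the limit of 3 counts, and no fold change is given. Meg3 (ENSMUSG00000021268, chromosome 12, 109541001 to 109571726, plus strand) stood at 1.02, 0.831 and 1.52 CPM in Ivl:BRAFV600E tumours and at 4.11, 2.07 and 1.73 CPM in Ivl:BRAFV600E-SOX2LSL tumours. The groups did not overlap, though tumour 3 was close to the highest Ivl:BRAFV600E tumour. On the log2 scale the fold change was 1.23 (SE 0.43, edgeR adjusted p = 0.136), and 0.76 without tumour 1 (adjusted p = 0.270). Rian (ENSMUSG00000097451, chromosome 12, 109603940 to 109661716, plus strand) stood at 1.81, 1.94 and 2.38 CPM against 11.7, 3.11 and 2.49 CPM. The order was that of Meg3, with tumour 1 highest and tumour 3 just above the Ivl:BRAFV600E range. Its log2 fold change was 1.50 (SE 0.60, edgeR adjusted p = 0.172), and 0.46 without tumour 1 (adjusted p = 0.379). Both maternal RNAs of the domain were thus several-fold higher in tumour 1 than the Ivl:BRAFV600E mean, Meg3 3.66-fold and Rian 5.73-fold. Mirg, the next transcript of the domain, was chosen after its values were seen and stood at 0.136 to 0.428 CPM against 0.699, 0.259 and 0.217 CPM, with overlap between the groups.

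Peg3, Mest, Plagl1 and Ndn are paternally expressed genes at separate loci. PEG3 and PLAGL1 are zinc finger proteins, PLAGL1 being a transcription factor that acts on other imprinted genes, MEST is an enzyme of the alpha/beta hydrolase fold that is linked to fat cell size, and NDN (necdin) is a protein of the MAGE family that restrains the cell cycle. Mest (ENSMUSG00000051855, chromosome 6, 30723547 to 30748465, plus strand) stood at 1.91, 1.66 and 2.80 CPM in Ivl:BRAFV600E tumours and at 24.9, 1.75 and 2.46 CPM in Ivl:BRAFV600E-SOX2LSL tumours. Tumour 1 was 11.7-fold above the Ivl:BRAFV600E mean, and the other two lay inside the Ivl:BRAFV600E range. The log2 fold change of 2.19 (SE 0.99, edgeR adjusted p = 0.216) became -0.02 (SE 0.35, adjusted p = 0.983) without tumour 1. The 3′ end of Mest overlaps Copg2 on the opposite strand over 912 exonic bases. Whether the counting used strand is not stated, so reads there are uncertain, and Copg2 itself, named for this overlap, stood at 86.4, 92.6 and 90.7 CPM against 70.3, 62.0 and 67.8 CPM, with no rise in tumour 1.

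Peg3 (ENSMUSG00000002265, chromosome 7, 6703892 to 6730431, minus strand) stood at 3.31, 3.65 and 3.42 CPM in Ivl:BRAFV600E tumours and at 8.48, 6.09 and 2.78 CPM in Ivl:BRAFV600E-SOX2LSL tumours. Tumours 1 and 2 were above, and tumour 3 below, every Ivl:BRAFV600E tumour. Its log2 fold change was 0.74 (SE 0.39, edgeR adjusted p = 0.275), and 0.36 without tumour 1 (adjusted p = 0.583). Plagl1 (ENSMUSG00000019817, chromosome 10, 13060504 to 13131694, plus strand) went the other way in tumour 1. It stood at 7.61, 5.68 and 7.46 CPM against 4.56, 13.3 and 9.57 CPM, so that tumour 1 was the lowest of all 6 and tumours 2 and 3 the highest. This gave a log2 fold change of 0.40 (SE 0.38, edgeR adjusted p = 0.532), 0.73 without tumour 1 (adjusted p = 0.113), and 0.03 without tumour 2 (adjusted p = 0.972). Ndn (ENSMUSG00000033585, chromosome 7, 62346569 to 62350262, plus strand) varied most within the control group relative to its mean. It stood at 0.341, 0.0924 and 1.28 CPM in Ivl:BRAFV600E tumours and at 1.54, 1.72 and 1.08 CPM in Ivl:BRAFV600E-SOX2LSL tumours, with overlap between the groups. The log2 fold change was 1.35 (SE 0.77, edgeR adjusted p = 0.308), and 1.31 without Ivl:BRAFV600E-SOX2LSL tumour 1. It moved more with the control tumours, to 0.86 without Ivl:BRAFV600E tumour 2 (adjusted p = 0.475) and to 2.67 without Ivl:BRAFV600E tumour 3 (adjusted p = 0.0964).

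Grb10 encodes an adaptor that binds the insulin and IGF1 receptors and damps their signal, and it restrains fetal growth. Grb10 (ENSMUSG00000020176, chromosome 11, 11930508 to 12038683, minus strand) stood at 7.26, 5.54 and 9.31 CPM in Ivl:BRAFV600E tumours and at 27.5, 9.85 and 8.81 CPM in Ivl:BRAFV600E-SOX2LSL tumours. Tumour 1 was 3.73-fold above the Ivl:BRAFV600E mean, tumour 2 was just above the range of the control group, and tumour 3 lay inside it. Its log2 fold change was 1.06 (SE 0.46, edgeR adjusted p = 0.203), and 0.34 without tumour 1 (adjusted p = 0.463). One Grb10 promoter window held 45 CpG dinucleotides in 300 bases, more than 98.2% of all windows, whose median is 7.

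**Figure D2:**
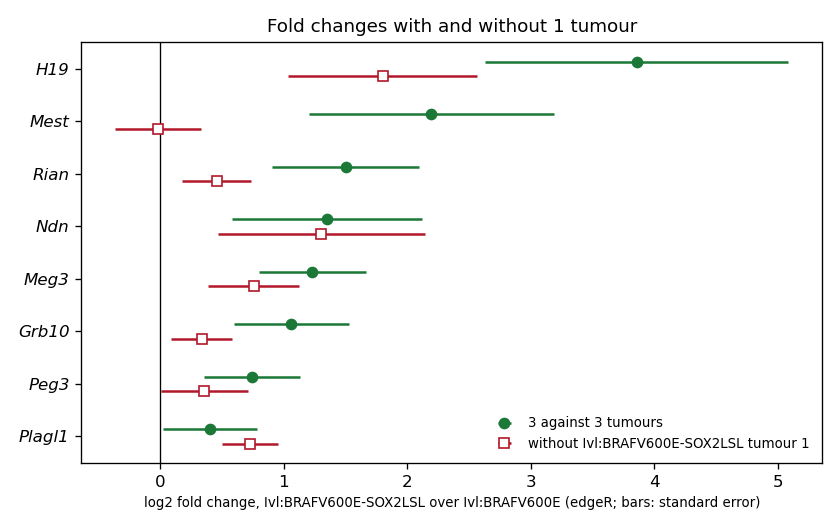
Fitted log2 fold change, Ivl:BRAFV600E-SOX2LSL over Ivl:BRAFV600E, of 8 of the 10 genes (Dlk1 and Igf2, with few reads, are left out), with all 6 tumours (filled circles) and without Ivl:BRAFV600E-SOX2LSL tumour 1 (open squares). Bars are standard errors derived from edgeR's fold change and F statistic. H19 moves from 3.86 to 1.80 and Mest from 2.19 to -0.02, while Ndn is at 1.35 and 1.31 and Plagl1 moves from 0.40 to 0.73.

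Levels of different genes can be compared only per length of exon. In the Ivl:BRAFV600E tumours H19 had the highest level per length, 1.30 to 2.11 CPM per kb, and did not overlap with the next gene. Plagl1 (0.727 to 0.973 CPM per kb), Grb10 (0.610 to 1.02) and Mest (0.422 to 0.711) followed, and neighbours among these 3 did not differ beyond their spread. Peg3 (0.248 to 0.274) stood below Mest without overlap, and the wide range of Ndn (0.0250 to 0.347) took in those of Peg3, Rian (0.0991 to 0.130) and Meg3 (0.0460 to 0.0841). Meg3 stood below Rian without overlap. Igf2 had 0.0161 to 0.0238 CPM per kb over all its exonic bases and 0.0434 to 0.0641 over the 2127 bases not shared with Gm49394, the latter overlapping with Meg3, so its place is uncertain, and Dlk1 was at 0. In Ivl:BRAFV600E-SOX2LSL tumour 1, H19 reached 59.6 CPM per kb and Mest 6.31 CPM per kb.

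The summed level of the 10 genes was 27.1, 22.7 and 33.4 CPM in Ivl:BRAFV600E tumours and 230.3, 63.6 and 31.9 CPM in Ivl:BRAFV600E-SOX2LSL tumours, of which H19 made up 147 CPM in tumour 1. Tumour 1 also stood apart in markers of other cell types. Fibroblast markers (15 of 15 detected, none at 0, 13 of 15 highest in tumour 1, against 28.1% of all genes with 5 reads in a tumour of each group) summed to 1064 to 5840 CPM in Ivl:BRAFV600E tumours and to 10731, 4616 and 5955 CPM in Ivl:BRAFV600E-SOX2LSL tumours 1, 2 and 3. Adipocyte markers (11 of 11 detected; of the 7 with 5 reads in a tumour of each group, 5 highest in tumour 1) summed to 27.2 to 58.9 CPM against 159, 31.8 and 46.6 CPM, with tumour 1 highest. Of fat cell markers named after their values were seen, Adipoq, the defining hormone, was at 0 in all 3 Ivl:BRAFV600E tumours and at 4.20, 0 and 0.108 CPM in Ivl:BRAFV600E-SOX2LSL tumours, and passed the filter only through tumour 1. Fabp4 (43.7, 26.7 and 16.1 CPM against 36.4, 10.7 and 25.7 CPM) and Pparg (4.98, 2.22 and 2.00 CPM against 4.87, 2.69 and 3.79 CPM) were instead highest in Ivl:BRAFV600E tumour 1. Leukocyte markers (11 of 11 detected) summed to 47.8 to 72.5 CPM against 223, 121 and 107 CPM. Of the 9 with 5 reads in a tumour of each group, 5 were highest in tumour 1. Among the same 9, edgeR called 2 higher, Ptprc and Csf1r, against 2.39% of all such genes. Keratinocyte markers (14 of 14 detected, 1 of 14 highest in tumour 1) summed to 106737 to 170257 CPM against 21541, 72066 and 62127 CPM. The sum rests on abundant keratins such as Krt1, Krt10, Krt14 and Krt16, and 5 of the 14 markers had a fold change above 0. Of markers chosen after their values were seen, Krt5 stood at 2562 to 2668 against 2371, 3900 and 3314 CPM and Trp63 at 261 to 297 against 281, 321 and 302 CPM, and Col17a1 was highest in tumour 1 (1619 CPM). The part of these cell types in the levels of the imprinted genes was not tested.

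Skeletal muscle markers (20 of 20 detected) summed to 9.31 to 24.2 CPM in Ivl:BRAFV600E tumours and to 3482, 3802 and 896 CPM in Ivl:BRAFV600E-SOX2LSL tumours. Of the 11 with 5 reads in a tumour of each group edgeR called all 11 higher, against 2.39% of all such genes. In 4 of the 11 tumour 1 was highest, against 28.1% of such genes. The other muscle markers tested passed the filter on low counts only through the group where they are high. Markers of satellite cells and regenerating muscle summed to 0.462 to 1.02 CPM against 6.66, 14.4 and 2.49 CPM, and of the 3 with 5 reads in a tumour of each group 0 were highest in tumour 1. Fibre genes named after their values were seen differed among the Ivl:BRAFV600E-SOX2LSL tumours: Myh4, a fast myosin, stood at 270.0, 17.7 and 17.5 CPM, and Myh1 at 81.7, 433 and 98.8 CPM. The part of muscle in the levels of the imprinted genes was not tested. Endothelial markers (227 to 235 against 216 to 266 CPM) and markers of pericytes and smooth muscle (436 to 530 against 393 to 467 CPM) had similar sums in both groups, and those of Schwann cells and neurons summed to 125 to 142 CPM in Ivl:BRAFV600E tumours and to 54.9, 156 and 105 CPM in Ivl:BRAFV600E-SOX2LSL tumours 1, 2 and 3.

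**Figure D3:**
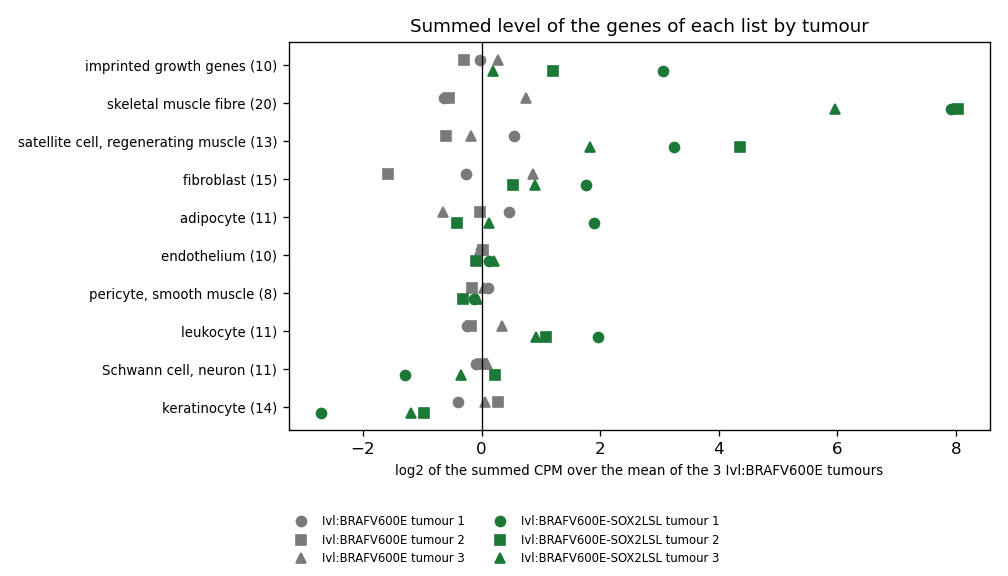
Summed level of the 10 imprinted genes and of each list of cell type markers in each tumour, as the log2 of its CPM over the mean of the 3 Ivl:BRAFV600E tumours (number of listed genes in brackets; grey, Ivl:BRAFV600E; green, Ivl:BRAFV600E-SOX2LSL). The imprinted genes, fibroblast, adipocyte and leukocyte markers are highest, and keratinocyte markers lowest, in Ivl:BRAFV600E-SOX2LSL tumour 1, whereas muscle fibre markers sum to 3482 and 3802 CPM in tumours 1 and 2.

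Other imprinted genes were read from lists of the imprinted gene network and of paternally and maternally expressed genes. Counts over the lists take the genes that reached 5 reads in a tumour of each group, of which edgeR called 2.39% higher and 1.67% lower and DESeq2 9.04% and 7.21%. Of the 6 other genes of the network, edgeR called 0 higher and 1 lower; of 19 paternally expressed genes, 0 and 1; and of 19 maternally expressed genes, 0 and 2 (the lists share members). DESeq2 called 2 higher and 1 lower in the network list, 0 and 1 in the paternal list and 4 and 3 in the maternal list. At an unadjusted edgeR p of 0.05 the lists had 2 higher and 1 lower, 2 and 1, and 5 and 3, against 14.5% and 11.8% of such genes. The median log2 fold changes were 1.05, 0.09 and 0.71, against 0.0081 over such genes, and 3 of 6, 9 of 19 and 9 of 19 were highest in tumour 1, against 28.1%. The genes called by edgeR were Slc38a4, Cpa4 and Phlda2. Slc38a4, an amino acid transporter of the placenta and liver that belongs to both of the first lists, fell from 53.2, 61.1 and 34.8 CPM in Ivl:BRAFV600E tumours to 16.3, 4.28 and 9.39 CPM in Ivl:BRAFV600E-SOX2LSL tumours (log2 fold change -2.31, SE 0.47, edgeR adjusted p = 0.0459). Cpa4, a carboxypeptidase gene near Mest on chromosome 6, fell from 420, 374 and 247 CPM to 70.5, 108 and 101 CPM (log2 fold change -1.90, SE 0.25, edgeR adjusted p = 0.0196). Phlda2, which restrains placental growth, fell from 13.6, 15.3 and 12.0 CPM to 6.57, 5.34 and 4.33 CPM (log2 fold change -1.33, SE 0.21, edgeR adjusted p = 0.0281). In these 3 genes the groups did not overlap. The levels of Slc38a4 still varied among the Ivl:BRAFV600E-SOX2LSL tumours, with tumour 1 highest. The calls of Slc38a4 and Phlda2 held without Ivl:BRAFV600E-SOX2LSL tumour 1 (adjusted p = 0.0118 and 0.0115) and were lost without any 1 of the other 5 tumours (adjusted p up to 0.166 and 0.126) and with sex as a covariate (0.126 and 0.0732), where their log2 fold changes were -2.18 and -1.37. With each tumour left out their log2 fold changes ran from -2.87 to -1.95 and from -1.49 to -1.19. That of Cpa4 was lost without Ivl:BRAFV600E tumour 1 (0.0977), Ivl:BRAFV600E tumour 2 (0.0791) or Ivl:BRAFV600E-SOX2LSL tumour 2 (0.0522), where its log2 fold change was -1.74, -1.84 and -2.02. The keratinocyte marker sum was lower in the same tumours, though not every marker was, and its part in these falls was not tested.

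Of the network genes that did not pass, Cdkn1c, a cell cycle inhibitor that lies on distal chromosome 7 like H19 and Igf2, stood at 0.477, 1.29 and 1.28 CPM in Ivl:BRAFV600E tumours and at 2.21, 20.2 and 3.97 CPM in Ivl:BRAFV600E-SOX2LSL tumours (log2 fold change 3.12, SE 0.89, edgeR adjusted p = 0.0921). Its highest level was in tumour 2, not in tumour 1. Gatm, an enzyme of creatine synthesis, stood at 1.06, 0.231 and 1.38 CPM against 10.1, 1.20 and 1.16 CPM, and so had the shape of Mest (edgeR adjusted p = 0.218). Gnas, which encodes the stimulatory G protein alpha subunit, stood at 4.51 to 6.93 CPM against 15.4, 7.64 and 10.1 CPM (log2 fold change 1.05, edgeR adjusted p = 0.100). Of the paternally expressed genes, Peg10, a retrotransposon-derived gene of the placenta, stood at 0.682, 0.785 and 0.143 CPM against 2.85, 0.518 and 1.41 CPM (log2 fold change 1.55, edgeR adjusted p = 0.248), and of the maternally expressed genes, Tfpi2, a secreted protease inhibitor, stood at 0.682, 0.323 and 0.618 CPM against 7.08, 1.30 and 1.08 CPM (log2 fold change 2.53, edgeR adjusted p = 0.113). Peg10 and Tfpi2 were highest in tumour 1, and the levels of Tfpi2 did not overlap between the groups. Next by fold change among the paternally expressed genes at a mean of at least 1 CPM were Zrsr1 and Sgce. Zrsr1 stood at 2.85 to 3.14 CPM against 4.90, 4.86 and 3.76 CPM, without overlap (log2 fold change 0.59, edgeR adjusted p = 0.158). Sgce stood at 1.25 to 2.22 CPM against 3.22, 2.23 and 1.55 CPM (log2 fold change 0.33, edgeR adjusted p = 0.611).

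The IGF axis, in which IGF2 acts, was followed from ligand to receptor and binding proteins. None of its 19 tested genes was called by edgeR, against 2.39% of all genes tested called higher and 1.51% lower. Of the 18 with 5 reads in a tumour of each group, 4 lay higher and 0 lower at an unadjusted p of 0.05 (14.5% and 11.8% of all such genes), and DESeq2 called 3 higher (9.04% of such genes). Igf1, the second ligand, stood at 7.06, 4.43 and 25.5 CPM in Ivl:BRAFV600E tumours and at 21.4, 24.6 and 31.3 CPM in Ivl:BRAFV600E-SOX2LSL tumours (log2 fold change 1.07, SE 0.60, edgeR adjusted p = 0.304). Igf1r, the signalling receptor of both ligands, stood at 111, 105 and 109 CPM against 167, 133 and 145 CPM. Its groups did not overlap and its log2 fold change was 0.45 (SE 0.13, edgeR adjusted p = 0.0882). Insr, the insulin receptor, which can also bind IGF2, stood at 57.9, 64.6 and 58.1 CPM against 94.3, 68.4 and 69.0 CPM (log2 fold change 0.36, SE 0.16, edgeR adjusted p = 0.207). Igf2r, the imprinted receptor that removes IGF2, stood at 164, 193 and 170 CPM against 401, 182 and 141 CPM, so tumour 1 alone lay above the range of the control group (log2 fold change 0.46, SE 0.37, edgeR adjusted p = 0.464). At a mean of at least 1 CPM the largest fold changes in the axis were those of Htra1, a secreted protease (38.3, 28.5 and 39.9 CPM against 223, 52.8 and 77.2 CPM; log2 fold change 1.73, edgeR adjusted p = 0.0996), and of Igfbp2, a binding protein (101, 226 and 190 CPM against 9.04, 104 and 84.9 CPM; -1.38, edgeR adjusted p = 0.296). Of the 18 axis genes with 5 reads in a tumour of each group, 8 were highest in Ivl:BRAFV600E-SOX2LSL tumour 1, against 28.1% of all such genes. Igf1r, Igf2r and Insr were among the 8, while Igf1 was highest in tumour 3 and Igfbp2 was lowest in tumour 1.

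Among the factors that write and keep imprints, 13 genes reached 5 reads in a tumour of each group, and 2 of the 13 were called higher and 0 lower, against 2.39% and 1.67% of all such genes. Dnmt3a, a de novo DNA methyltransferase, rose from 29.8, 22.8 and 30.6 CPM in Ivl:BRAFV600E tumours to 71.2, 69.1 and 73.9 CPM in Ivl:BRAFV600E-SOX2LSL tumours (log2 fold change 1.36, SE 0.15, edgeR adjusted p = 0.0108). Dnmt3b, its relative, rose from 2.56, 2.36 and 3.18 CPM to 6.41, 6.19 and 6.03 CPM (log2 fold change 1.20, SE 0.22, edgeR adjusted p = 0.0350). Unlike most of the 10 imprinted genes, both had nearly equal levels in the 3 Ivl:BRAFV600E-SOX2LSL tumours. The call of Dnmt3a was lost without Ivl:BRAFV600E tumour 1 alone (adjusted p = 0.0875, log2 fold change 1.42). That of Dnmt3b held without Ivl:BRAFV600E-SOX2LSL tumour 1 (0.0342) and was lost without any 1 of the other 5 tumours (up to 0.159) and with sex as a covariate (0.0827, log2 fold change 1.14), and with each tumour left out its log2 fold change ran from 1.11 to 1.34. Of those that did not pass, the 3 with the largest fold changes at a mean of at least 1 CPM were Dnmt1, the maintenance methyltransferase (85.6 to 104 CPM against 120 to 144 CPM, log2 fold change 0.49, edgeR adjusted p = 0.0837), Tet1, which oxidises methylated cytosine (0.323 to 1.47 CPM against 1.23 to 1.55 CPM, 0.44, adjusted p = 0.631), and Dnmt3l, a cofactor of DNMT3A (2.42 to 4.23 CPM against 1.91 to 3.39 CPM, -0.37, adjusted p = 0.512). Leukocyte and skeletal muscle marker sums were also higher, and the keratinocyte sum lower, in every Ivl:BRAFV600E-SOX2LSL tumour. The part of these cell types in the rises of Dnmt3a and Dnmt3b was not tested. DNA methylation at the imprinted genes was not analysed here.

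**Figure D4:**
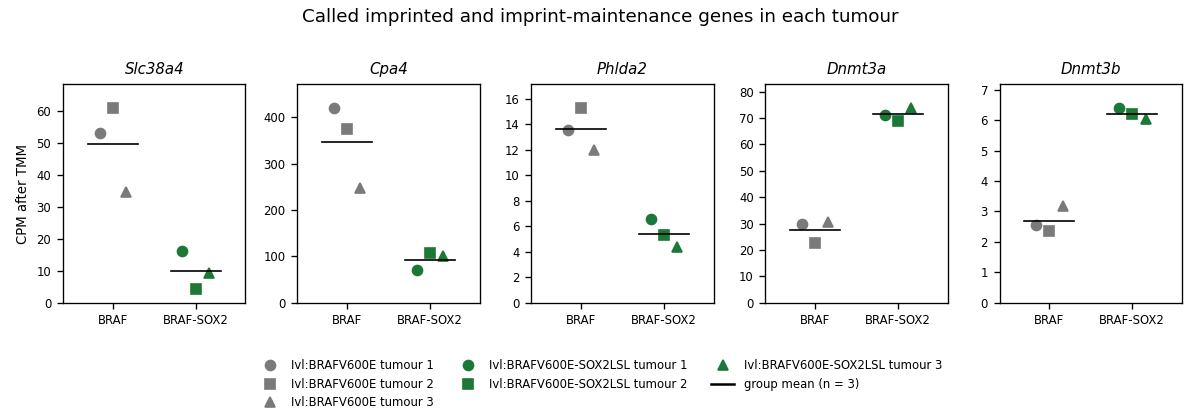
Level in each tumour, in CPM after TMM on a linear axis from 0, of the 3 imprinted genes and 2 DNA methyltransferase genes that edgeR called among the related lists (points, tumours, n = 3 per group; lines, group means; BRAF, Ivl:BRAFV600E; BRAF-SOX2, Ivl:BRAFV600E-SOX2LSL). Slc38a4, Cpa4 and Phlda2 are lower and Dnmt3a and Dnmt3b higher in every Ivl:BRAFV600E-SOX2LSL tumour, with no overlap between the groups.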

How the data were processed

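RNA was depleted of ribosomal RNA and sequenced as paired ends. Per the labels, FastQC 0.11.8, Trim Galore, HISAT2 2.1.0 and featureCounts (Subread 1.6.3) were used with GRCm38, and the authors deposited raw read counts per gene, not normalised. Whether strand or multimapping reads were used is not given in the sources used here. The columns are named by mouse. The mice listed for the study place 6 of the 7 columns in a genotype and give sex; 1 column could not be placed and was not used, although the labels name 4 Ivl:BRAFV600E samples.

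Of all features, those reaching 5 reads in 1 tumour or more were compared with edgeR 4.0.16 (TMM, quasi-likelihood test, adjusted p 0.05) in R 4.3.3, with genotype as the only factor; log2 CPM for likeness used a prior count of 2. Each of the 3 tumours per group is from its own mouse; with so few, no exact permutation test (two-sided, smallest possible p = 0.1) was run. Coordinates are those of GENCODE M21. The edgeR, DESeq2 and limma steps were tested on simulated data with known changes. Alternatives were DESeq2 1.42.0, limma voom 3.58.1, other scalings and filters, sex as a covariate, and leaving out each tumour. Figures were drawn with Python 3.11.15 and matplotlib 3.10.9.

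The genes and lists were chosen with earlier results of these data known. Named are all 10 members, called genes of the other imprinted, IGF axis and imprint-maintenance lists, up to 3 others per list with the largest fold change at a mean of at least 1 CPM, and Igf1, Igf1r, Igf2r and Insr; genes outside this rule are marked. Cell type markers are given by list. The set of genes with 5 reads in a tumour of each group was added after the values were seen. The floor of 3 counts covers counting error only.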

Additional observations from a re-analysis of the deposited data

How the results depend on the processing

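Over all genes, 585 were called higher and 369 lower in Ivl:BRAFV600E-SOX2LSL tumours. DESeq2 gave 2098 and 1555, limma voom 370 higher, no filter 1091 and 668, filterByExpr 560 lower, and sex as a covariate 161 and 67. Leaving out each tumour gave 12 to 845 higher and 10 to 730 lower, the lowest without Ivl:BRAFV600E tumour 1 and the highest without Ivl:BRAFV600E-SOX2LSL tumour 1; the cause was not tested. Of the 10 imprinted genes, 0 were called, and 1 (H19) with DESeq2 and 0 to 1 when each tumour was left out, with H19 called without Ivl:BRAFV600E-SOX2LSL tumour 3. The other alternatives called 0. DESeq2 gave no adjusted p for Mest and Dlk1. The log2 fold change of Mest ran from -0.0175 to 2.69 when each tumour was left out and was below 0 without Ivl:BRAFV600E-SOX2LSL tumour 1, the only sign change among the 10 genes and the 5 related calls; Dlk1 did not pass the filter there. filterByExpr kept 8 of the 10 genes. Over the scalings, the median log2 fold change over all genes was 0.04 with TMM, 0.03 with DESeq2's size factors and -0.06 with upper quartiles. No paired analysis was possible because the columns carry no replicate number. Dlk1 and Igf2 rest on few reads.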

Other observations

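Some imprinted genes of the lists with a mean under 1 CPM are named after their values were seen. Snrpn, a splicing protein gene of the Prader-Willi region in which Ndn also lies, stood at 0.102, 0.0462 and 0.475 CPM in Ivl:BRAFV600E tumours and at 4.25, 0.615 and 0.181 CPM in Ivl:BRAFV600E-SOX2LSL tumours (log2 fold change 3.04, SE 1.27, edgeR adjusted p = 0.189). Dio3, the thyroid hormone deiodinase at the far end of the domain of Dlk1, stood at 0.136, 0 and 0.333 CPM against 2.13, 0.259 and 0.108 CPM (log2 fold change 2.41, SE 1.31, edgeR adjusted p = 0.288). Rtl1, the retrotransposon-derived gene between Dlk1 and Dio3, stood at 0.0682, 0.231 and 0.143 CPM against 0.336, 0.0324 and 0.144 CPM (edgeR adjusted p = 0.884). Sfmbt2, a Polycomb gene, stood at 0 to 0.190 CPM against 0.727, 0.907 and 0.614 CPM, and Zdbf2 at 0.0462 to 0.190 CPM against 0.616, 0.453 and 0.433 CPM. Both passed the filter on low counts only through the Ivl:BRAFV600E-SOX2LSL tumours, where they are high, so no test of them is given.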
